A study of Homo sapiens with 8 samples.

Results

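The miR-17-92 cluster is a group of miRNA hairpins cut from a single primary transcript, and its mature arms were followed here in INA-6 cells, an established human multiple myeloma (MM) cell line that was grown with interleukin-6. The members were the 10 mature arms of the cluster's hairpins listed by name, out of 2549 human miRNAs with probes on the array, and all 10 had probes. They comprised 6 guide arms (hsa-miR-17-5p, hsa-miR-18a-5p, hsa-miR-19a-3p, hsa-miR-19b-3p, hsa-miR-20a-5p and hsa-miR-92a-3p) and 4 passenger arms (hsa-miR-17-3p, hsa-miR-18a-3p, hsa-miR-19b-1-5p and hsa-miR-20a-3p), written without the species prefix from here on. RNA of cells given the solvent DMSO was hybridized to 4 single-colour arrays, and RNA of cells given 1 μM of UNC1999, a compound that blocks the histone methyltransferase EZH2, to 4 others. Treatment lasted 120 hours, that is 5 days, with fresh medium and reagents at 72 hours. The sample titles and the methods name DMSO as the control, whereas the treatment protocol in the labels names the inactive compound UNC2400, and the samples were taken here as DMSO controls. The titles call the 4 samples of a group biological replicates, and all come from 1 cell line.

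A miRNA hairpin is cut by Dicer into a duplex, of which the guide strand is loaded into an Argonaute protein and pairs with target mRNAs through its seed, while the passenger strand is mostly degraded. The miR-17-92 transcript, also called MIR17HG, is activated by the transcription factor MYC and is amplified or overexpressed in many B-cell lymphomas. Among the targets known for its guides are mRNAs of the apoptosis activator BIM, the cell cycle inhibitor p21 and transcription factors of the E2F family.

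The sequences of the arms are shown by seed, since arms that share one can pair with the same sites. All 10 members were matched to the RefSeq table of mature miRNAs (GRCh38.p14), and the capitals mark the seed, bases 2 to 8 counted from the 5′ end. The guides miR-17-5p and miR-20a-5p have the same seed, as do miR-19a-3p and miR-19b-3p, while miR-18a-5p and miR-92a-3p each have a seed of their own within the cluster.
miR-17-5p: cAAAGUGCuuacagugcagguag
miR-20a-5p: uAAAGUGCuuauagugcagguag
miR-18a-5p: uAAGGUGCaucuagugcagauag
miR-19a-3p: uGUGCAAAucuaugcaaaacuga
miR-19b-3p: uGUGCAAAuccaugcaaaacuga
miR-92a-3p: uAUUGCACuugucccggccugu
The passenger arms, which come from the opposite side of the same hairpins, have seeds that no guide of the cluster has.
miR-17-3p: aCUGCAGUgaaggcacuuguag
miR-18a-3p: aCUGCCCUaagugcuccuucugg
miR-20a-3p: aCUGCAUUaugagcacuuaaag
miR-19b-1-5p: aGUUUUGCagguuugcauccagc

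Counted from base 1 of the first named, miR-17-5p and miR-20a-5p differ at 2 of 23 positions (C1U and C12U) and miR-19a-3p and miR-19b-3p at 1 of 23 (U11C). Their levels are therefore read by probes for very similar RNAs, and how far one hybridizes to the probe of the other was not tested. In the RefSeq annotation the 6 hairpins lie on the plus strand of chromosome 13 in the order MIR17, MIR18A, MIR19A, MIR20A, MIR19B1 and MIR92A1, within 787 bases (chr13:91350605-91351391), with 35 to 92 bases between neighbours. The mature sequences of miR-19b-3p and miR-92a-3p are each listed at 2 loci, the other one on chromosome X, so the signal of these arms sums both sources. For 2 hairpins the guide and the passenger arm both passed the detection filter, and their sequences are given with both arms in capitals.
MIR17: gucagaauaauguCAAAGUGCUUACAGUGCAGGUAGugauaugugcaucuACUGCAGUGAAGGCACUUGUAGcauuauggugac
MIR19B1: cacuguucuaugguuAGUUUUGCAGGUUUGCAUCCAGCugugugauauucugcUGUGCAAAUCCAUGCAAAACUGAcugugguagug

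Each array held 53144 spots, and the scanner software marked 482, 369, 370 and 484 human miRNAs as detected on DMSO arrays 1 to 4 and 500, 498, 491 and 474 on UNC1999 arrays 1 to 4. Precision is limited by the number of arrays, and the smallest p that an exact permutation test can reach with 4 against 4 is 0.029. All arrays lay on 1 slide. Row 1 of the slide held DMSO arrays 1, 2 and 4 with UNC1999 array 4, and row 2 held DMSO array 3 with UNC1999 arrays 1, 2 and 3. The arrays were alike in pairs within each group: the second principal component over the 456 tested miRNAs, with 15.0% of the variance, set DMSO arrays 1 and 4 and UNC1999 arrays 1 and 3 apart from DMSO arrays 2 and 3 and UNC1999 arrays 2 and 4. Alike arrays still differed by more than the spread of repeated spots, with a median squared difference of 4.38 to 11.3 times the squared error from the spots, where spot noise alone gives 0.455. Separate hybridizations of 1 RNA could differ by as much, so this does not tell samples apart. The titles call them biological replicates, and the paper describes its heatmap of miR-125a and miR-320c in INA-6 as 4 independent biological experiments. The arrays of a group were therefore taken as 4 samples, and whether alike arrays came from separate cultures was not tested. Levels are given as log2 of the signal after scaling, which set the 75th percentile of the 346 miRNAs found on every array to a common value, so a change is always one against the rest of the array. The percentile before scaling was 419 ± 119 (SD, n = 4) for DMSO and 664 ± 88.4 (SD, n = 4) for UNC1999 (exact permutation test, two-sided, p = 0.0571).

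After UNC1999 treatment 8 of the 10 members were called lower, and these 8 were the ones that passed the filter of detection on all 4 arrays of a group. These calls rest on scaling between arrays: without it 0 of the 8 were called, at -0.36 to -0.00028 on the log2 scale, and 0 with the labelling spike-ins, at -0.25 to 0.11. All 8 were detected on all 8 arrays, so none passed through 1 group alone. To be called, a miRNA needed a limma adjusted p no higher than 0.05 with a change of 1.2-fold or more, and this rule called 70.6% of the 456 tested miRNAs in either direction and 34.6% as lower. Their median log2 fold change was -0.96, against 0.011 for all tested miRNAs. For each of the 8, every UNC1999 value lay below every DMSO value, as was true of 32.7% of all tested miRNAs. In the order of the log2 fold change from the lowest, the 8 stood at ranks 15, 21, 24, 26, 27, 30, 34 and 67 of 456. Rank 21 is that of miR-19b-1-5p and is uncertain, as is the size of its change.

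**Figure D1:**
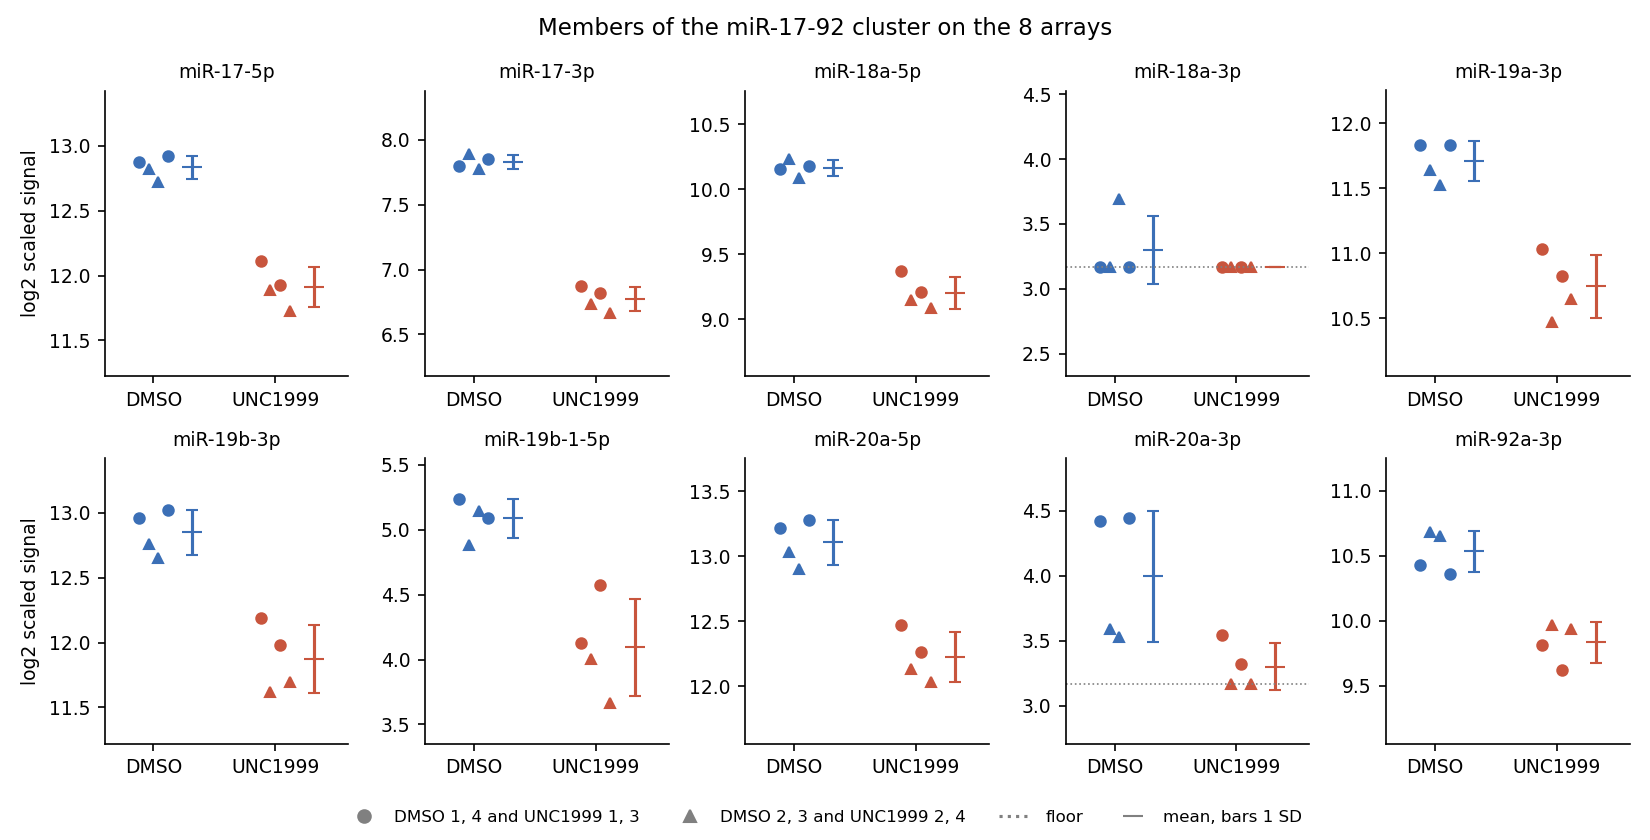
Log2 scaled signal of the 10 members on each array (y axis), with DMSO arrays in blue, UNC1999 arrays in red, and the mean with 1 SD beside them; circles and triangles are the alike arrays. The groups are apart for the 8 tested members, while miR-18a-3p and miR-20a-3p lie at or near the floor (dotted line, shown in those 2 panels).

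The guides with the seed AAAGUGC, which are known to repress p21 and E2F mRNAs, fell to 52.8% and 54.2% of their DMSO level. On DMSO arrays 1 to 4 the log2 signal of miR-17-5p was 12.87, 12.82, 12.72 and 12.92, and on UNC1999 arrays 1 to 4 it was 12.11, 11.89, 11.93 and 11.73. The lowest DMSO array stood above the highest UNC1999 array by more than the range within either group. The log2 fold change of miR-17-5p came to -0.92, with a standard error (SE) of 0.11 and a limma adjusted p of 1.1e-04, which left 52.8% of the DMSO level. The log2 signal of miR-20a-5p was 13.22, 13.04, 12.90 and 13.28 on the DMSO arrays and 12.47, 12.13, 12.26 and 12.03 on the UNC1999 arrays. DMSO arrays 1 and 4 and UNC1999 arrays 1 and 3, which are alike over all miRNAs, were the higher ones of their groups. The log2 fold change of miR-20a-5p was -0.88 (SE 0.13, limma adjusted p = 3.85e-04), close to that of miR-17-5p.

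The guide miR-18a-5p, whose seed differs from that of miR-17-5p by a single base, had the log2 signals 10.16, 10.24, 10.09 and 10.18 on the DMSO arrays and 9.37, 9.15, 9.21 and 9.09 on the UNC1999 arrays. Its DMSO arrays lay closer together (SD 0.059, n = 4) than its UNC1999 arrays (SD 0.12, n = 4), and the groups were far apart. Its log2 fold change was -0.96 (SE 0.097, limma adjusted p = 1.02e-04).

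The miR-19 guides, which are the part of the cluster that drives lymphoma in mouse models, fell to a similar extent. For miR-19a-3p the log2 signals were 11.83, 11.64, 11.53 and 11.84 on the DMSO arrays and 11.03, 10.47, 10.83 and 10.65 on the UNC1999 arrays. For miR-19b-3p they were 12.96, 12.76, 12.65 and 13.02 on the DMSO arrays and 12.19, 11.62, 11.98 and 11.69 on the UNC1999 arrays. In both, the UNC1999 arrays spread more widely than the DMSO arrays, with UNC1999 array 1 the highest and UNC1999 array 2 the lowest. The log2 fold changes were -0.96 for miR-19a-3p (SE 0.14, limma adjusted p = 3.7e-04) and -0.98 for miR-19b-3p (SE 0.14, limma adjusted p = 4.14e-04).

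The last guide of the transcript, miR-92a-3p, which belongs to a seed family with known roles in blood vessels and B-cell development, had the log2 fold change nearest to 0 among the 8 as processed here. Its log2 signals were 10.43, 10.68, 10.65 and 10.36 on the DMSO arrays and 9.81, 9.97, 9.62 and 9.94 on the UNC1999 arrays. Here DMSO arrays 2 and 3 and UNC1999 arrays 2 and 4 were the higher ones of their groups, the reverse of miR-19a-3p, miR-19b-3p and miR-20a-5p. Its log2 fold change was -0.70 (SE 0.12, limma adjusted p = 7.95e-04), which left 61.6% of the DMSO level. Scaled to the labelling spike-ins it stood at 0.11, while the other 7 stayed below 0 there and 0 of the 8 were called.

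Among the passenger arms, miR-17-3p gave the clearest signal. Its log2 signals were 7.80, 7.89, 7.77 and 7.85 on the DMSO arrays and 6.87, 6.74, 6.82 and 6.66 on the UNC1999 arrays. The 8 values form tight groups, with SDs of 0.055 and 0.092 (n = 4 each), and as processed here miR-17-3p fell the most among the members, to 48.1% of its DMSO level. Its log2 fold change was -1.05 (SE 0.092, limma adjusted p = 6.97e-05). The passenger miR-19b-1-5p was dim, with scaled signals, before log2, of 37.7, 29.5, 35.3 and 34.1 on the DMSO arrays and 17.5, 16.1, 23.8 and 12.7 on the UNC1999 arrays, where the floor was 8.98. All 8 values were above the floor, and the UNC1999 arrays, with array 3 the highest and array 4 the lowest, spread more widely than the DMSO arrays. Its log2 fold change was -0.99 (SE 0.17, limma adjusted p = 9.48e-04). The size of this change is uncertain. The 1 probe that carried its signal was above background on 3 DMSO and 2 UNC1999 arrays. It was no brighter than the floor for probes, 16.9, on UNC1999 arrays 2 and 4, although that floor did not enter the change of -0.99. When log2 probe values were averaged, where that floor does enter, miR-19b-1-5p changed by -0.19 and was not called, and in the authors' processed values by -2.0.

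The other 2 passengers could not be tested. The scaled signal of miR-20a-3p was 21.4, 12, 11.6 and 21.8 on the DMSO arrays and 11.7, 6.83, 9.99 and 8.09 on the UNC1999 arrays. It was marked as detected on 2 arrays of each group, its groups overlapped, and no fold change is given. The signal of miR-18a-3p was detected on 0 of 8 arrays and was above the floor on DMSO array 3 alone, at 12.9. The remaining arms of the hairpins, miR-19a-5p and miR-92a-1-5p, were detected on no array.

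**Figure D2:**
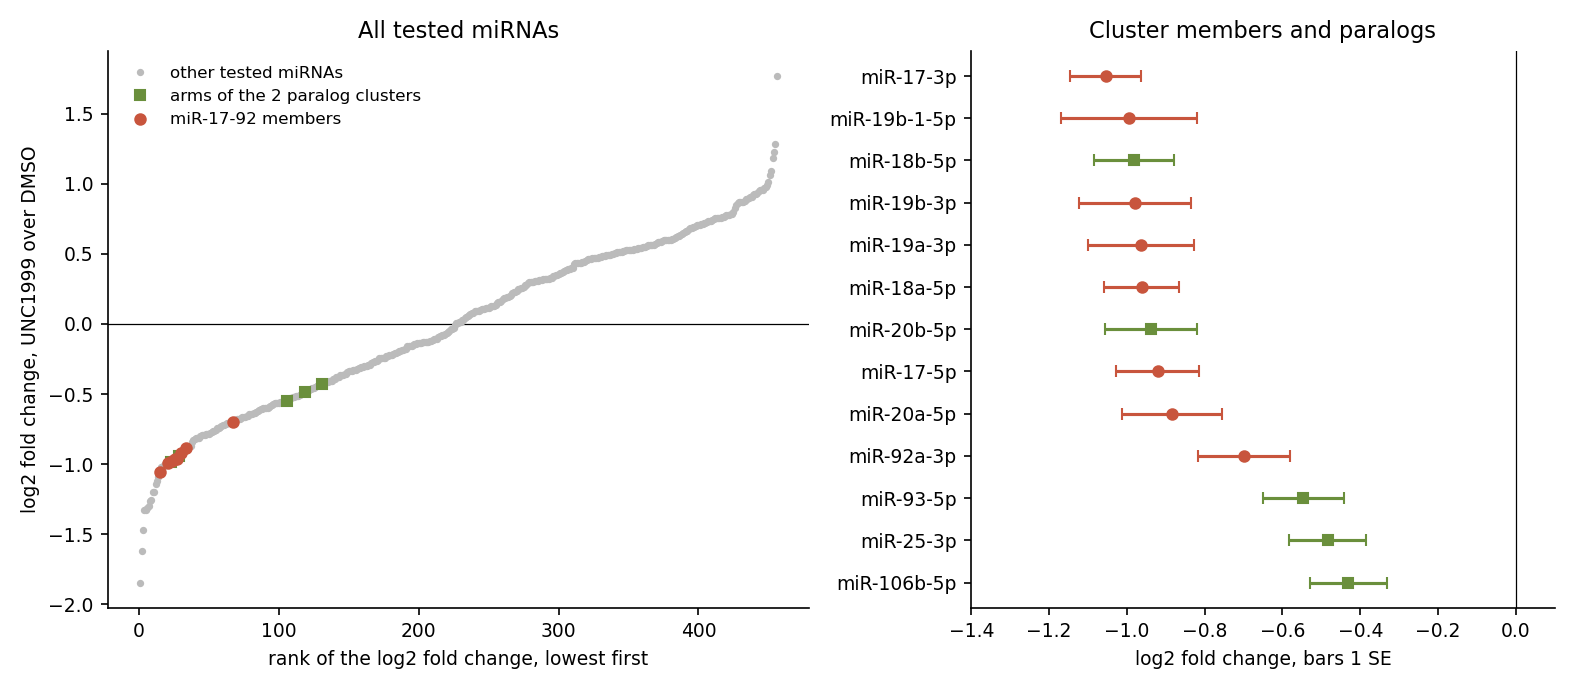
Left, log2 fold change of the 456 tested miRNAs (y axis) against its rank (x axis), with the 8 tested members in red and tested arms of the paralog clusters in green; right, the same changes with 1 standard error. The members lie between -1.05 and -0.70 at ranks 15 to 67.

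The array reads a mature miRNA with several probes, each printed repeatedly, so the change of a member can be followed probe by probe. The members had 25 probes, of which 14 passed the detection filter for probes and all 14 were called lower by limma, where 32.3% of the 666 tested probes were. Their log2 fold changes lay between -1.08 and -0.68, and no spot of a member was saturated. Without scaling between arrays 0 of the 14 probes were called. The 3 probes of miR-17-5p changed by -1.01, -0.99 and -0.89 on the log2 scale. The probes of miR-20a-5p changed by -0.89 and -0.88, those of miR-18a-5p by -0.98 and -0.95, and those of miR-19a-3p by -1.0 and -0.94. For miR-19b-3p they changed by -1.08 and -0.96, and for miR-92a-3p by -0.71 and -0.68. Of the 2 probes of miR-17-3p, 1 passed the filter, with a log2 fold change of -1.04. The other was marked as above background on 2 of 4 arrays after DMSO and 0 of 4 after UNC1999, where it stood at the floor for probes on all 4. The signal of miR-19b-1-5p came almost entirely from 1 of its 4 probes, which was above background on 3 of 4 DMSO and 2 of 4 UNC1999 arrays and therefore was not tested, and the other 3 were at the floor on all 8 arrays.

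**Figure D3:**
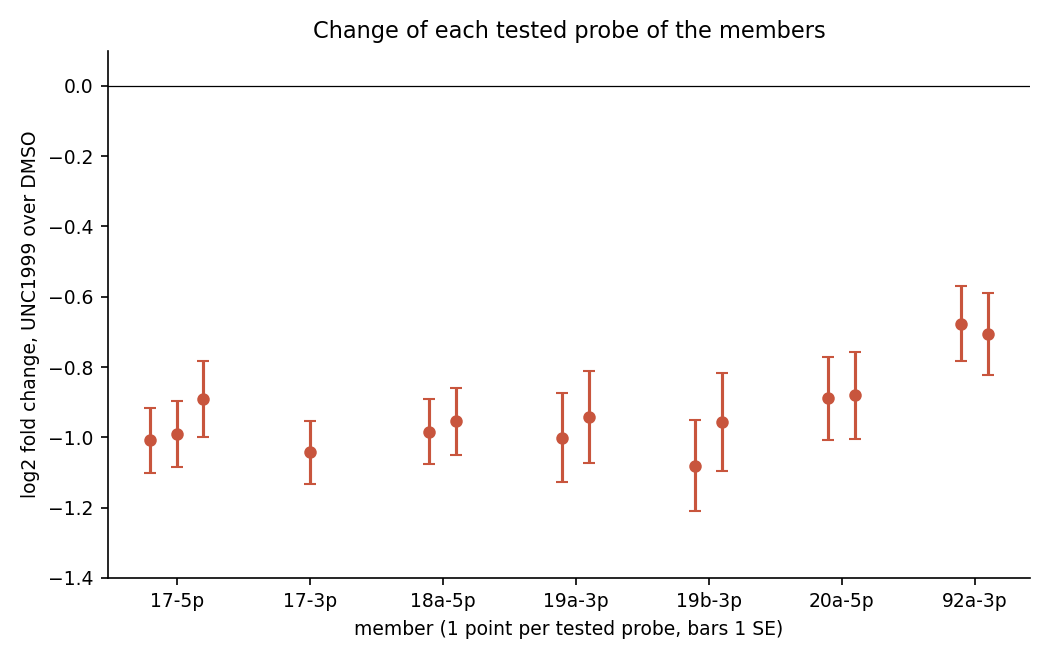
Log2 fold change of the 14 tested probes of the members (y axis, bars are 1 standard error), grouped by member (x axis). All points lie between -1.08 and -0.68, and both probes of miR-92a-3p lie above the probes of the other members.

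A ratio of 2 arms within an array is not moved by a scaling with 1 factor per array, although quantile normalization, which is not such a scaling, can move it. Over the 31 hairpins with both arms tested, the ratio of the 3p to the 5p arm was called in 17, or 54.8%, but in 5 with normexp and 11 in the authors' processed values, and neither of the 2 member hairpins was called as processed here. The log2 ratio of miR-17-3p to miR-17-5p was -5.08, -4.93, -4.95 and -5.07 on the DMSO arrays and -5.24, -5.15, -5.11 and -5.07 on the UNC1999 arrays. The groups overlapped, and the ratio changed by -0.13 (SE 0.11, limma adjusted p = 0.282). It changed by -0.28 with quantile normalization, an alternative chosen after the results were seen, and was not called (limma adjusted p = 0.118). In the authors' processed values, where it changed by -0.47, it was called (limma adjusted p = 0.0343). The log2 ratio of miR-19b-3p to miR-19b-1-5p was 7.72, 7.88, 7.51 and 7.93 on the DMSO arrays and 8.05, 7.61, 7.41 and 8.03 on the UNC1999 arrays. It changed by 0.017 (SE 0.18, limma adjusted p = 0.928), and its sign turned under several alternatives. The informative probe of miR-19b-1-5p was dim, no brighter than the floor for probes on UNC1999 arrays 2 and 4. For that reason this ratio does not show whether the arms changed equally. With the mean of log2 probe values, in which 3 probes at the floor count as much as the bright one, it changed by -0.83 and was called (limma adjusted p = 4.81e-04), and in the authors' processed values by 1.29 (limma adjusted p = 0.151).

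The 6 guides were also set against each other within each array, as the log2 signal of 1 guide minus the mean of the other 5. Between the groups this difference changed by -0.023 for miR-17-5p, -0.073 for miR-18a-5p, -0.075 for miR-19a-3p, -0.093 for miR-19b-3p and 0.021 for miR-20a-5p. These values moved with quantile normalization, which set miR-18a-5p at -0.30, miR-20a-5p at 0.16 and miR-92a-3p at 0.15 and turned the sign for miR-17-5p and miR-19b-3p. For miR-92a-3p it was -1.78, -1.41, -1.32 and -1.89 on the DMSO arrays and -1.62, -1.09, -1.62 and -1.10 on the UNC1999 arrays. Within each group the alike arrays went together, and between alike arrays the value was higher by 0.21 in UNC1999 arrays 1 and 3 than in DMSO arrays 1 and 4, and by 0.28 in UNC1999 arrays 2 and 4 than in DMSO arrays 2 and 3. Over all arrays it changed by 0.24, which is less than the SD of either group (0.27 and 0.31, n = 4 each; exact permutation test, two-sided, p = 0.257). After adjustment over the 6 guides the smallest p-value was 0.686, where a guide alone at the smallest p of 0.029 would have reached 0.171, and it was 0.111 when labels were permuted only between alike arrays, a test chosen after the results were seen. That test gives a p of 0.056 at the least before adjustment, so it could not have passed 0.05, and miR-18a-5p, miR-19b-3p and miR-92a-3p were at that smallest p.

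**Figure D4:**
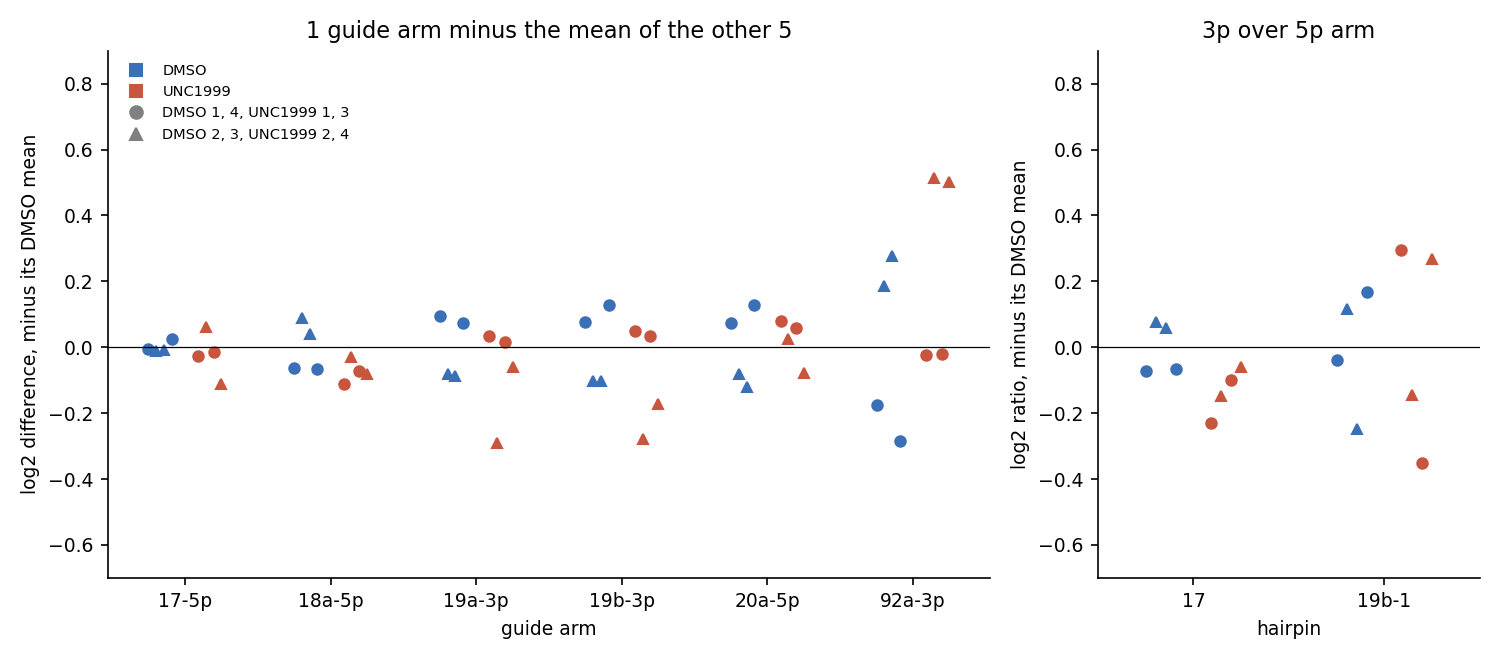
Left, log2 signal of each guide minus the mean of the other 5 guides on each array; right, log2 ratio of the 3p to the 5p arm of 2 hairpins; both are shown relative to their DMSO mean (y axes). As processed here the largest change is that of miR-92a-3p, 0.24, and it is smaller than the distance between triangles and circles, the alike arrays.

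Arms that share a seed with a member but come from other loci were compared next. The paralog cluster miR-106a-363 on chromosome X is known to be expressed at low levels in most adult tissue, and the miR-106b-25 cluster lies in an intron of MCM7, a gene of DNA replication. Of 9 arms of miR-106a-363 on the array 2 passed the filter and both were called lower, miR-18b-5p at -0.98 and miR-20b-5p at -0.94 (limma adjusted p = 1.02e-04 and 2.05e-04). Both are close copies of members, which a probe may not tell apart.
miR-18b-5p: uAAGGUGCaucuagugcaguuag
miR-20b-5p: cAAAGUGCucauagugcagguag
The arm miR-18b-5p differs from miR-18a-5p at 1 position (A20U), and miR-20b-5p differs from miR-20a-5p at 2 (U1C and U10C). Of the 10 arms listed for miR-106a-363, miR-106a-5p had no probes under its name. It differs from miR-17-5p at 1 position (C1A), and whether the probes of miR-17-5p read it was not tested. Of 6 arms of miR-106b-25 3 passed and were called lower, miR-93-5p at -0.55, miR-25-3p at -0.48 and miR-106b-5p at -0.43. Their changes were smaller than those of the members with the same seeds, a difference that was not tested. The direction of these 3 turned without scaling, at 0.15 to 0.27, and with the labelling spike-ins, at 0.26 to 0.38, while the 2 arms of miR-106a-363 stayed below 0 there, at -0.28 to -0.13, with 0 of 2 called. Under the scaling to the 75th percentile of all human miRNAs these 3 lay between -0.33 and -0.21 and 0 were called. With normexp the 3 lay between -0.34 and -0.23 and 2 were called lower.
miR-93-5p: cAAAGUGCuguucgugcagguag
miR-106b-5p: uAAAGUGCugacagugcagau
miR-25-3p: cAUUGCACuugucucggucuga
By seed, where 34.6% of all tested miRNAs were called lower, the 5 tested miRNAs with AAAGUGC were all called lower, between -0.94 and -0.43. So were both with AAGGUGC, both with GUGCAAA and both with AUUGCAC. These counts repeat members already counted above: 2 of the 5 with AAAGUGC, 1 with AAGGUGC, both with GUGCAAA and 1 with AUUGCAC.

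From the list of 22 miRNAs known to be repressed by MYC, 19 were tested, 16 were called lower, where 34.6% of all tested miRNAs were, and 0 higher, with a median log2 fold change of -0.56 against 0.011 over all tested miRNAs. The largest changes were those of miR-29b-3p (-1.02), let-7d-5p (-1.01), miR-29a-3p (-0.99) and let-7c-5p (-0.83). Without scaling 6 of the 19 were below 0, and with the labelling spike-ins 4 were below 0 and 4 were called higher, where 295 of all 456 were called higher. Under the scaling to the 75th percentile of all human miRNAs 6 were called lower, where 192 of all 280 calls were higher. The 5 miRNAs outside the 3 clusters whose centred values over the 8 arrays were nearest to the mean profile of the 8 members were miR-3651, miR-4284, miR-374b-5p, miR-625-5p and miR-103a-3p, with root mean square differences of 0.069 to 0.11 log2 units. Among the members themselves, which make up that mean profile and are near it by construction, this difference was 0.038 at the lowest, for miR-17-5p, and 0.20 for miR-19b-1-5p and 0.25 for miR-92a-3p at the highest, and its median over all tested miRNAs was 0.52.

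The size of the fall depended on the scaling. Without scaling the median over all tested miRNAs stood at 0.67 and the 8 members lay between -0.36 and -0.00028, 0 of them called. Scaled to the labelling spike-ins the median was 0.77, the members lay between -0.25 and 0.11, 7 of 8 below 0 and 0 called. The 8 were called lower under the other scalings, at a median of -0.74 for the 75th percentile of all human miRNAs, -0.79 after quantile normalization and -0.67 after the normexp correction of the background, where the median of all tested miRNAs was 0.23, 0.11 and -0.29. The share of higher ones among all calls was 50.9%, and it was 68.6% with the percentile over all human miRNAs, 19% with normexp, 98.3% without scaling and 97.7% with the spike-ins. Relative to the median tested miRNA, the members' median was -0.97 as reported, -0.94 without scaling, -0.93 with the spike-ins, -0.90 with quantile normalization and -0.38 with normexp. A lower amount of these miRNAs per cell and a higher amount of others cannot be told apart by these arrays, nor can fewer cells of a kind and less RNA in each.

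**Figure D5:**
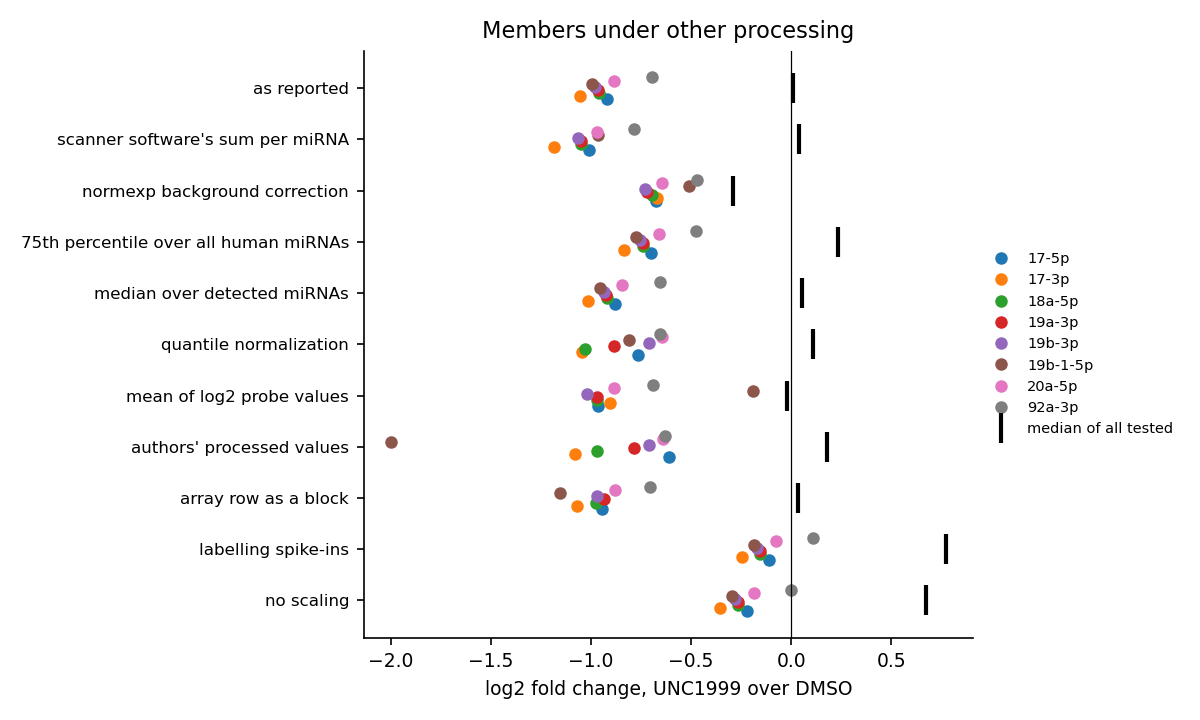
Log2 fold change (x axis) of the 8 tested members (points) and the median of all tested miRNAs (black bar) under the reported processing and 10 alternatives (y axis). Every member lies to the left of the median under each of these settings, whereas its distance from 0 depends on the scaling.

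Both rows of the slide held both groups. In row 1 the 8 members differed by -1.4 to -0.55 between 1 UNC1999 array and 3 DMSO arrays. In row 2 they differed by -0.96 to -0.61 between 3 UNC1999 arrays and 1 DMSO array. That 8 of 8 were below 0 in each row had to be so, since their groups do not overlap, and is no separate check. With the row as a block all 8 were called lower, at a median of -0.96.

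The 8 tested members all lay below the median GC content of the tested miRNAs. Their GC content ran from 34.8% for miR-19a-3p to 54.5% for miR-92a-3p among the 8 tested, against a median of 60.9% over the 395 of 456 tested miRNAs with a RefSeq sequence. Across these 395 miRNAs, which share the 8 arrays and are not independent, the log2 fold change was higher at higher GC content (Pearson's r = 0.38, Spearman's rho = 0.38, a description chosen after the results were seen). Of the 133 tested miRNAs within the members' range of GC content, the members included, 69 were called lower, with a median log2 fold change of -0.33. Above that range 66 of 254 were called lower, at a median of 0.27. Over all 456 tested miRNAs the share called lower was 34.6%. The part of base composition in the members' fall was not tested.

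Markers of cell types were looked at to check the identity of the cells. Of the 4 blood-lineage miRNAs (miR-142-3p, miR-142-5p, miR-155-5p and miR-181a-5p) 3 were detected on all arrays, miR-142-3p the brightest, and their summed scaled signal was 4699, 3751, 3548 and 4603 on the DMSO arrays and 3366, 2477, 3121 and 2970 on the UNC1999 arrays. By limma miR-142-3p and miR-142-5p were called lower (-0.52 and -0.36) and miR-181a-5p, at -0.22, was not called (limma adjusted p = 0.112). The dim miR-155-5p, detected on 0 DMSO and 2 UNC1999 arrays, was not tested. The markers of erythroid cells, epithelium, muscle, liver, endothelium and fibroblasts were detected on 0 of 8 arrays. Of the 2 neuronal markers only miR-9-5p was detected, on all arrays, and it was called lower (log2 fold change -0.88, limma adjusted p = 0.00523). The myeloid marker miR-223-3p was detected on all arrays and called higher (1.18, limma adjusted p = 5.68e-04), with scaled signals of 35.7, 40.9, 44.5 and 32.2 on the DMSO arrays and 77.1, 117, 62.7 and 97.7 on the UNC1999 arrays. Whether cells of another kind had a part in the members' change was not tested.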

How the data were processed

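Agilent miRNA arrays of INA-6 cells, 4 DMSO and 4 UNC1999, were analysed. The authors deposited scanner output made with Agilent Feature Extraction 10.7.3.1, per the file headers and processing notes, holding a background-subtracted intensity for each spot, not normalized between arrays, with outlier and detection marks. They also deposited a table of quantile-normalized log2 values, used as an alternative.

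Spots of a probe were averaged without outlier spots (1392 to 2292 per array), probes were summed per miRNA, arrays were scaled to the 75th percentile over the 346 miRNAs found on every array, and log2 was taken with 8.98 as the floor. The floor for probes was 16.9. A floor understates changes of dim miRNAs. The fit, by limma 3.58.1 (lmFit, eBayes) under R 4.3.3, had no block and took the 456 human miRNAs detected on each of the 4 arrays of a group, and p-values were adjusted by Benjamini-Hochberg over all of them. The same fit was made for 666 probes, those above background on over 0.5 of their spots on all 4 arrays of a group, and for 31 ratios of arms. Single differences were tested by exact permutation. The steps were tested on simulated data.

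Named miRNAs were every member, the other arms of the hairpins, the arms of both paralog clusters, the 5 nearest profiles, and up to 4 called miRNAs of the MYC list with the largest change; cell type markers were listed separately. The members and lists were chosen with earlier results of these data known. Alternatives were other signals, scalings, floors, filters, blocks and thresholds, and leaving out each array. Normexp, with an offset of 50, used the median signal of each spot and its local background. Averaging alike arrays, and taking them as a block or quantile normalization for arm ratios and guides, were alternatives chosen after seeing the data. Other assays of the study, on mRNA and chromatin, were left out because these arrays hold none of them.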

Additional observations from a re-analysis of the deposited data

Results flagged for a closer look

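Of 42 groups of 4 values, covering the tested arms of the 3 clusters and the ratios within arrays, 1 had an array whose gap to the nearest other array took most of the range of the group, where chance gives about 2.1. The log2 signal of miR-17-5p minus the mean of the other 5 guides was 1.19 on DMSO array 4 and 1.15 on each of the other DMSO arrays.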

How the results depend on the processing

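The 8 members were called lower under the alternatives run, apart from those named here. Without scaling and with the labelling spike-ins 0 of 8 were called, and miR-92a-3p turned to 0.11 with the spike-ins. Without scaling 0 of 14 member probes were called. Averaging log2 probe values left 7 members called. Of 25 alternatives per member, the log2 fold change was below 0 in 25, and in 24 for miR-92a-3p. Many of these could not have turned the sign. Another floor, filter or variance trend, replicates or alike arrays as a block, and averaged alike arrays left the fold change as it was. Leaving out an array could not turn it either, since the groups do not overlap. Leaving out each array kept 8 members and 14 probes called, with 292 to 326 miRNAs and 15 to 21 arm ratios called in all, and miR-92a-3p between -0.75 and -0.63.

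Of all tested miRNAs 322 were called, 195 with no filter on detection, where more miRNAs were tested, 175 at a fold change of at least 1.5, 152 by the methods' paired t-test after Benjamini-Hochberg (236 before it), which the paper names for its statistics as a whole, not for the arrays, and 156 with alike arrays averaged to 2 against 2, an alternative chosen after seeing the data. All 8 members were called under each of these. Of the arm ratios 5 were called with normexp and 11 in the authors' processed values.

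The arm ratio of miR-17 changed by 0.0078 with normexp, 0.058 with averaged log2 probe values and -0.47 in the authors' processed values, and from -0.16 to -0.10 with arrays left out. That of miR-19b-1 changed by -0.099 with the scanner software's sum, -0.22 with normexp and -0.83 with averaged log2 probe values, and from -0.077 to 0.14 with arrays left out, below 0 without DMSO array 3, UNC1999 array 1 or UNC1999 array 4. In the authors' processed values miR-17-5p against the other guides changed by 0.14, miR-19b-3p by 0.015, miR-18a-5p by -0.29, miR-19a-3p by -0.072, miR-20a-5p by 0.10 and miR-92a-3p by 0.11. With quantile normalization, chosen for these after seeing the data, the values were 0.019, 0.088, -0.30, -0.12, 0.16 and 0.15 in the same order of guides. With arrays left out miR-17-5p lay between -0.051 and 0.0063, above 0 without UNC1999 array 4, miR-20a-5p between -0.019 and 0.064, below 0 without DMSO array 2 or 3, miR-18a-5p between -0.096 and -0.044, miR-19a-3p between -0.11 and -0.0036, miR-19b-3p between -0.14 and -0.031 and miR-92a-3p between 0.15 and 0.34. No guide passed the exact permutation test after adjustment, which a guide alone could not pass. The p before adjustment was the smallest possible, 0.029, for miR-18a-5p in the authors' values, miR-18a-5p and miR-20a-5p with quantile normalization and miR-17-5p without UNC1999 array 2. The causes were not tested.

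Samples with the same number were not taken as pairs, and their deviations from the group means correlated at 0.18, 0.27, -0.42 and -0.39. With the replicate block 308 miRNAs, 8 members, 14 member probes and 16 arm ratios were called. The signal over the floor limits the dim passengers, and 4 arrays a group limit every comparison.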
